A study of Mus musculus with 8 samples.

Results

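The genes described here are 10 genes of striatal projection neurons: the peptide precursors Tac1 and Penk, the receptors Drd1, Drd2 and Adora2a, the signalling protein Ppp1r1b, and the transcription factors Ebf1, Ikzf1, Rxrg and Foxp1. They were chosen by name, with their measured difference between wild type and Ptbp2 knockout cortex already known, so those differences are given as a description and no test of them is made. Of the 10 genes, 9 had probe sets annotated to them alone and all 9 were among the 12960 genes tested. Adora2a, the adenosine receptor of striatopallidal neurons, had none and has no value here.

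Medium spiny neurons are the GABAergic projection neurons that make up most of the striatum. They form the striatonigral (direct) pathway, whose cells typically carry the D1 dopamine receptor and substance P from Tac1, and the striatopallidal (indirect) pathway, whose cells typically carry the D2 receptor, the adenosine receptor encoded by Adora2a and enkephalin from Penk. The striatum lies beneath the cortex and its neurons arise in the lateral ganglionic eminence, while several of these genes, among them Foxp1 and Penk, are also expressed by cells of the cortex.

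The tissue was mouse cortex of embryonic day 18.5, all from animals of mixed CD1 and C57BL/6 background, and its RNA was hybridised to Affymetrix exon arrays with 1 array per embryo. One group held 4 wild type embryos and the other 4 embryos of the Ptbp2 KO genotype. The gene removed, Ptbp2, codes for a neuronal regulator of alternative splicing that binds polypyrimidine tracts, and the labels used here do not describe the allele or any Cre driver. Both groups are cortex, and no striatal sample was analysed here.

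Array medians lay between 6.82 and 6.93 on the log2 scale, and their number, 8, limits the precision. Ptbp2 lay between 11.08 and 11.40 on the wild type arrays and between 5.54 and 6.24 on the knockout arrays, as the labels say. The 11 cortical projection neuron genes tested had wild type means from 8.54 to 11.61, and Neurod6, near the top, lay between 11.29 and 11.68 on all arrays. On the first 2 principal components the arrays farthest out were wild type 3 and knockout 3. Over all genes tested, 15 (0.116%) passed limma's test at an adjusted p of 0.05, 491 (3.79%) had a lower knockout mean at an unadjusted p under 0.05, and 255 (1.97%) had all 4 knockout values below all 4 wild type values. The median difference of all genes was 0.0027, and 49.0% had a lower knockout mean. In bulk tissue, fewer cells of a type and less RNA per cell cannot be told apart, and this holds for every value below.

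The stretches before the transcription starts of these genes are shown, for 3 genes with a motif match, because the genes were lower together in knockout cortex. RefSeq (GRCm38.p6) promoter windows matched 7 of the 10 genes, with 13 windows between them, and the 250 bases before each start were searched on both strands. The EBF motif was searched as CCCNNGGG. The cAMP response element was searched as TGACGTCA and in a variant form spelled TGCGTCA. The motif of AP-1 factors was spelled TGANTCA and the E-box motif was CACGTG, while the half-site of nuclear receptors was AGGTCA and the motif of forkhead factors was spelled TGTTTAC. The EBF, cAMP response element, AP-1 and E-box motifs read the same on both strands, and no matches overlapped. In the windows below capitals mark the matches, which in Tac1 are the cAMP response element variant and then the E-box (chr6:7554811-7555060, plus strand), in Drd2 the EBF motif (chr9:49340153-49340402, plus strand) and in Rxrg the half-site, in the second of its windows (chr1:167618015-167618264, plus strand).
Tac1: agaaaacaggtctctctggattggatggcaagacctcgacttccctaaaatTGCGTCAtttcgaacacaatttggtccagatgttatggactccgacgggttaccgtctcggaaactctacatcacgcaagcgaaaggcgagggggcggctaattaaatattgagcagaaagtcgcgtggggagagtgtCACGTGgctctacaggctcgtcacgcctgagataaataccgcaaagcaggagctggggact
Drd2: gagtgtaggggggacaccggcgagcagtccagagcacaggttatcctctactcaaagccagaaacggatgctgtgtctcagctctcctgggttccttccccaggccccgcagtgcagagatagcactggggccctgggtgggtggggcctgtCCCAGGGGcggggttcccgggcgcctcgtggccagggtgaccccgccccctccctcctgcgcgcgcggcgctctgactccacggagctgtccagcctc
Rxrg: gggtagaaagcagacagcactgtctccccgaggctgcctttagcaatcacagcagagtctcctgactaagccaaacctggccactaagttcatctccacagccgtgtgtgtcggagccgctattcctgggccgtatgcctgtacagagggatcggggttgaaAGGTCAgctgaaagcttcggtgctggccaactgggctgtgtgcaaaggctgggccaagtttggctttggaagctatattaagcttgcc
The EBF motif was found in 1 window each of Drd2, Ikzf1 and Foxp1, beginning 98, 56 and 114 bases before the start, and in 11.8% of all 32851 promoters. The response element variant began 199 bases and the E-box 61 bases before the Tac1 start, and these motifs were found in 1.75% and 6.02% of promoters. The half-site began 88 bases before the Rxrg start and was found in 14% of promoters. The full cAMP response element, the AP-1 motif and the forkhead motif were found in no window of these genes, against 1.55%, 6.75% and 3.17% of promoters. A match is a description of letters in this window, not a binding site.

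In all 9 measured genes the knockout mean was lower than the wild type mean, by 0.24 to 0.75 on the log2 scale, with a mean difference of -0.43 and a median of -0.45. The largest difference was in the peptide gene Tac1 and the smallest in the transcription factor Foxp1. In 6 of the 9 (Tac1, Penk, Ikzf1, Drd1, Ppp1r1b and Foxp1) the groups did not overlap, and 9 of 9 were lower at an unadjusted p under 0.05, beside 1.97% and 3.79% of all genes. None of the 9 passed the adjusted threshold over all genes. The genes were picked on this contrast, so nothing is read from these counts.

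**Figure D1:**
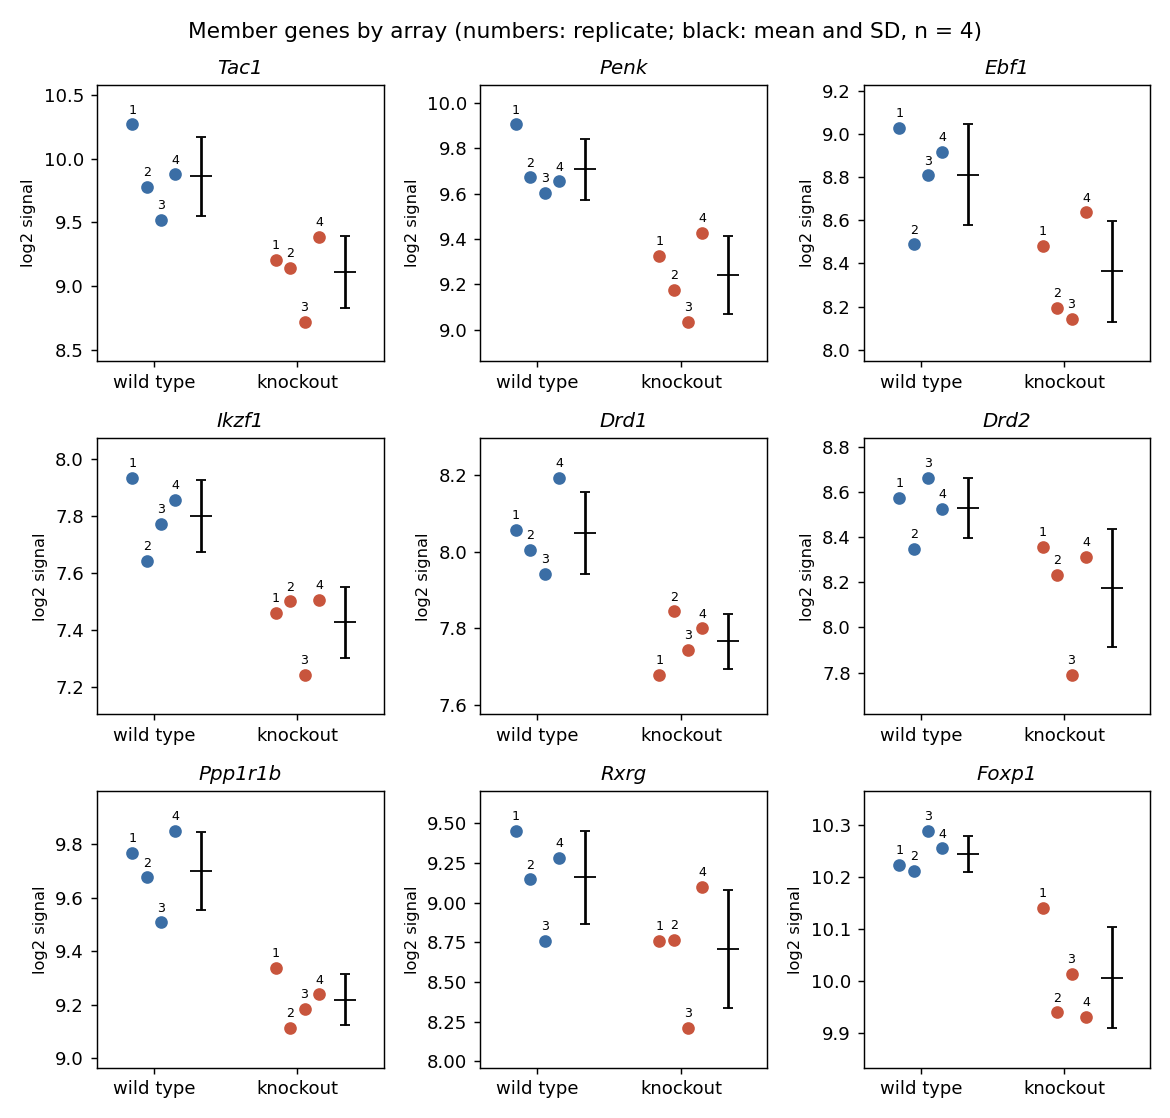
Log2 signal of the 9 measured genes (y axis, a separate scale for each gene) on the 4 wild type (blue) and 4 knockout (red) arrays, numbered by replicate, with the mean and SD in black. The knockout points of Tac1, Penk, Ikzf1, Drd1, Ppp1r1b and Foxp1 all lie below the wild type points, while those of Ebf1, Drd2 and Rxrg overlap them; knockout 3 is the lowest array in 6 genes.

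Tac1 encodes the precursor of substance P and neurokinin A. Its log2 signal, the median of 7 retained probe sets, was 10.27, 9.78, 9.52 and 9.88 on wild type arrays 1 to 4 and 9.21, 9.14, 8.72 and 9.39 on knockout arrays 1 to 4. Every knockout array lay below the lowest wild type array, with knockout 3 the lowest and wild type 1 the highest. The means were 9.86 ± 0.31 and 9.11 ± 0.28 (SD, n = 4 each), a log2 difference of -0.75 (SE 0.15), or 0.597 of the wild type signal.

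Penk encodes proenkephalin, the precursor of the enkephalins. Over 5 probe sets, the log2 signals were 9.91, 9.67, 9.60 and 9.65 in wild type and 9.32, 9.18, 9.03 and 9.43 in knockout cortex. The groups did not overlap, and the order of the knockout arrays was that of Tac1, from knockout 3 up through 2 and 1 to 4. The means were 9.71 ± 0.13 and 9.24 ± 0.17 (SD, n = 4 each), a log2 difference of -0.47 (SE 0.11), or 0.723 of the wild type signal.

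Drd1 encodes the D1 dopamine receptor, which couples to adenylyl cyclase through the stimulatory G protein Golf. On the log2 scale the signal over 4 probe sets was 8.06, 8.01, 7.94 and 8.19 in wild type and 7.68, 7.84, 7.74 and 7.80 in knockout cortex, 8.05 ± 0.11 against 7.77 ± 0.072 (SD, n = 4 each). The groups lay close to each other without overlap, and here knockout 1 and not knockout 3 was the lowest. The log2 difference was -0.28 (SE 0.091), or 0.822 of the wild type signal. It was -0.37 when arrays were weighted by their quality.

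Drd2 encodes the D2 dopamine receptor, which inhibits adenylyl cyclase. The 11 probe sets of Drd2 gave log2 signals of 8.57, 8.35, 8.66 and 8.53 in wild type and 8.36, 8.23, 7.79 and 8.31 in knockout cortex. Knockout 1 lay above wild type 2, and knockout 3 stood below all other arrays. The means were 8.53 ± 0.13 and 8.17 ± 0.26 (SD, n = 4 each), a log2 difference of -0.35 (SE 0.12), or 0.782 of the wild type signal. Without knockout 3 the log2 difference of Drd2 was -0.23, and -0.18 without both wild type 3 and knockout 3.

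Ppp1r1b encodes DARPP-32, a phosphatase inhibitor switched on by protein kinase A downstream of D1 receptors. The median of its 12 probe sets was, in log2 signal, 9.77, 9.68, 9.51 and 9.85 in wild type and 9.34, 9.11, 9.18 and 9.24 in knockout cortex. The groups did not overlap, and the knockout arrays lay within a narrow range, with knockout 2 the lowest. The means were 9.70 ± 0.15 and 9.22 ± 0.095 (SD, n = 4 each), a log2 difference of -0.48 (SE 0.098), or 0.716 of the wild type signal.

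Ebf1, a helix-loop-helix factor needed for the differentiation of striatonigral neurons, also acts in B cells. Its log2 signal over 21 probe sets was 9.03, 8.49, 8.81 and 8.92 in wild type and 8.48, 8.20, 8.14 and 8.64 in knockout cortex, with knockout 4 above wild type 2. The means were 8.81 ± 0.23 and 8.36 ± 0.23 (SD, n = 4 each), a log2 difference of -0.45 (SE 0.13), or 0.734 of the wild type signal. With no filter on low probe sets the difference of Ebf1 was -0.29. Ebf1 is also expressed by mural cells of vessels, and 5 of the 7 mural cell genes tested had a higher and 2 a lower knockout mean (median difference 0.10, 0.020 without knockout 3).

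Ikzf1 encodes Ikaros, a zinc finger factor of blood cells that is also expressed in developing striatal neurons. Its log2 signal over 9 probe sets was 7.93, 7.64, 7.77 and 7.86 in wild type and 7.46, 7.50, 7.24 and 7.51 in knockout cortex, with no overlap and knockout 3 the lowest. The means were 7.80 ± 0.13 and 7.43 ± 0.12 (SD, n = 4 each), a log2 difference of -0.37 (SE 0.099), or 0.771 of the wild type signal. Microglia carry Ikzf1 too, and all 6 microglial genes tested had a higher knockout mean (median difference 0.21, 0.12 without wild type 3), none past the threshold; Tyrobp, a microglial adaptor, differed by 0.23 (limma adjusted p = 0.77). The mean of these 6 genes, relative to wild type, lay between -0.20 and 0.095 on wild type and between 0.064 and 0.32 on knockout arrays, and with a filter at the 75th percentile their median was -0.024. The microglial markers Cx3cr1, Aif1, C1qa and P2ry12 had 3 retained probe sets each and were not tested.

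Rxrg encodes retinoid X receptor gamma, a nuclear receptor that pairs with retinoic acid receptors in the striatum. From 14 probe sets, the log2 signals of Rxrg were 9.45, 9.15, 8.76 and 9.28 in wild type and 8.76, 8.76, 8.21 and 9.10 in knockout cortex. Knockouts 1, 2 and 4 all lay above wild type 3, and replicate 3 was the lowest array of both groups. The means were 9.16 ± 0.29 and 8.71 ± 0.37 (SD, n = 4 each), a log2 difference of -0.45 (SE 0.17), or 0.732 of the wild type signal. The difference of Rxrg had the largest SE of the 9 genes, and that difference was -0.28 without knockout 3 and -0.58 without wild type 3.

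Foxp1 encodes a forkhead factor found in medium spiny neurons and in cortical projection neurons. Its log2 signal over 31 probe sets was 10.22, 10.21, 10.29 and 10.25 in wild type and 10.14, 9.94, 10.01 and 9.93 in knockout cortex. The wild type arrays lay within a range smaller than that of any other of the 9 genes, and all knockout arrays were below them. The means were 10.24 ± 0.035 and 10.01 ± 0.097 (SD, n = 4 each), a log2 difference of -0.24 (SE 0.088), or 0.848 of the wild type signal. The difference of Foxp1 was -0.15 with the mean in place of the median of its probe sets.

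The probe sets of a gene give separate readings of it along its transcript. Of the 137 probe sets annotated to the 9 genes, 114 passed the filter on low signal, and 105 of these had a lower and 9 a higher knockout mean, beside 48.4% lower over all probe sets of tested genes. All 4 knockout values lay below all 4 wild type values in 37 of the 114, against 1.78% of all such probe sets, and in 0 they lay above. Of the 23 below the filter, 18 had a lower knockout mean, and 10 of the 23 belonged to Ikzf1. Every retained probe set of Tac1 (7), Penk (5), Ikzf1 (9), Drd1 (4) and Rxrg (14) was lower. The probe sets of the 9 genes carry the contrast on which the genes were picked, so nothing is read from their counts.

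**Figure D2:**
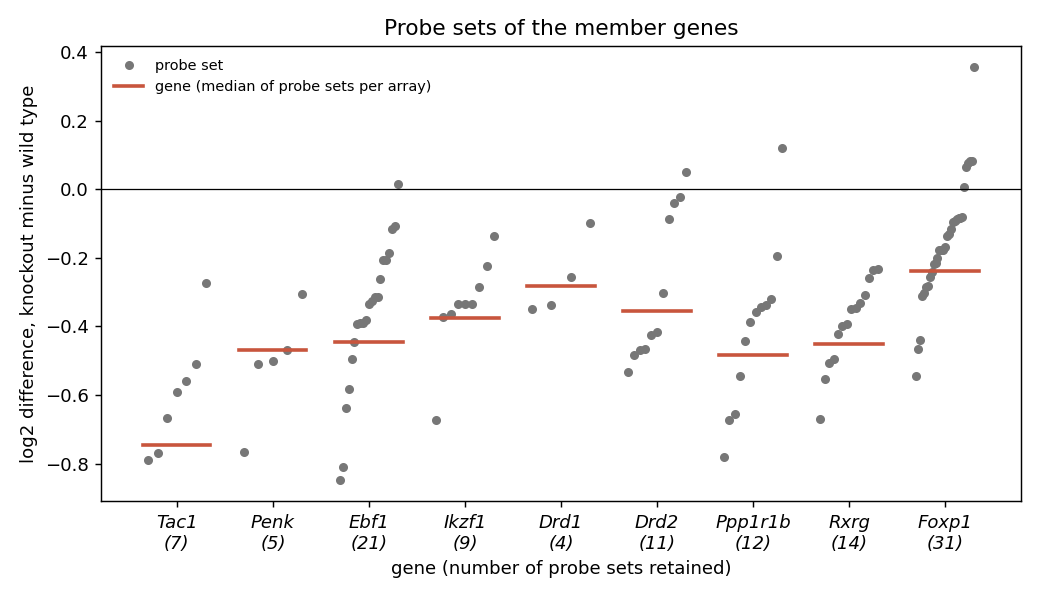
Log2 difference, knockout minus wild type (y axis), of each retained probe set (grey points, sorted) of the 9 genes, with the difference of the gene itself as a red line. Nearly all points lie below 0; the 9 above belong to Ebf1 (1), Drd2 (1), Ppp1r1b (1) and Foxp1 (6), and the highest is a Foxp1 probe set at 0.36.

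Among the Tac1 probe sets the difference ran from -0.79 to -0.27, and 6 of 7 had no overlap between groups. The least changed Tac1 probe set, 5045467, lay between 9.06 and 9.08 on all wild type arrays and between 8.72 and 8.87 on the knockout arrays. The differences ran from -0.77 to -0.31 in Penk and from -0.67 to -0.23 in Rxrg. In Drd2 they ran from -0.53 to 0.052, and probe set 5617332, the one at the top, read 11.49 ± 0.28 in wild type and 11.54 ± 0.12 in knockout cortex (SD, n = 4 each).

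Ptbp2 regulates splicing, so the usage of each probe set, its difference set against the others of its gene, was also taken with limma's diffSplice. None of the 114 probe sets passed the adjusted threshold, beside 0.216% of all probe sets of tested genes, and 11, in 6 of the 9 genes, had an unadjusted p under 0.05, beside 4.57% of all. The count of 11 was 5 without wild type 1 or knockout 3 and 14 without knockout 4. The share of all probe sets moved too, from 2.90% without knockout 3 to 6.25% without knockout 2. Over all probe sets, 422 were called, but 178 without knockout 3, 867 without knockout 2 and 21 by the splicing index, which sets each probe set against its gene's median. The splicing index also called none of the 114. The largest usage values were in Ppp1r1b probe set 5152336 (0.58 on the log2 scale) and Foxp1 probe set 4912465 (0.53). Both probe sets read little above the filter of 6.84, while their genes read 9.70 and 10.24 in wild type cortex. A probe set with low signal may not follow a fall of its gene, and its part in these values was not tested. The Ppp1r1b probe set read 7.26 ± 0.048 in wild type and 7.38 ± 0.40 in knockout cortex, while 5121981 of the same gene went from 8.59 ± 0.33 to 7.81 ± 0.28 (SD, n = 4 each). The Foxp1 probe set read 6.89 ± 0.29 and 7.25 ± 0.39, and Foxp1 probe set 5055559 went from 11.02 ± 0.20 to 10.48 ± 0.44 (SD, n = 4 each). Each of the first pair was called when 1 array was left out, 5152336 without knockout 2 and 4912465 without knockout 4.

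Averaged over the 9 genes and set against the wild type mean, the level was 0.15, -0.10, -0.11 and 0.061 on wild type arrays 1 to 4 and -0.35, -0.44, -0.64 and -0.28 on knockout arrays 1 to 4. Wild type 1 was the highest array in 5 of the 9 genes. Knockout 4, the highest knockout array of this mean, was below every wild type array in 7 of the 9 genes. The mean difference was -0.35 without knockout 3, and all 9 genes kept a lower knockout mean whichever array was left out.

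How the genes varied among embryos of 1 genotype does not hold the contrast that chose them. After group means were removed, Pearson's r over the 8 arrays between pairs of the genes had a median of 0.48 over 36 pairs, with 30 above 0 and a range of -0.55 to 0.96. With the mean of the other 8, r was 0.90 for Tac1, 0.89 for Penk, 0.87 for both Rxrg and Ikzf1, 0.79 for Ebf1, 0.62 for Drd2 and 0.54 for Ppp1r1b. Drd1 (0.29) and Foxp1 (-0.14) followed that mean least. Positive r was not particular to these genes. Among all 12951 other genes r with the mean of the 9 had a median of 0.31, with 35.9% above 0.5, and the cause was not tested.

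The genes nearest to that mean within groups were Ak5, an adenylate kinase of brain (r = 0.99), Pdpn, Tmsb15l, Lgalsl, Taf1d, Cdc5l, Zfp763, Mapre1, Sms and Tmx2 (0.98 to 0.99), and the most opposed were Sftpb (-0.98), Ell3 (-0.97) and Spen (-0.96). The nearest 10 shared 0 genes with the nearest 10 after wild type 3 and knockout 3 were left out, and 0 with the mean of probe sets in place of the median. Of 16 other medium spiny genes, 7 had r above 0.5 (43.8%), beside 35.9% of all other genes. Foxp2 (0.96), Isl1 (0.88), Rarb (0.85), Gnal (0.81) and Rgs9 (0.80) were the highest. The lowest were Meis2 (-0.31), Sp9 (-0.016) and Bcl11b (-0.013).

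The other medium spiny genes were then compared between genotypes. Of 23 listed, 16 were tested; 13 had a lower and 3 a higher knockout mean, with a median difference of -0.13, and none passed limma's adjusted threshold; 3 of the 16 were lower at an unadjusted p under 0.05 (3.79% of all genes), and in 3 the groups did not overlap (1.97% of all genes). Over all genes 49.0% were lower. Without wild type 3 the median of these 16 was -0.21, beside -0.027 for all genes, and the count at an unadjusted p was 7. The same count over all genes was 491, and between 337 and 669 with 1 array left out. Gnal, the alpha subunit of Golf, read 10.31, 10.31, 10.26 and 10.30 in wild type and 10.10, 10.04, 9.83 and 10.12 in knockout cortex (log2 difference -0.27, SE 0.092, limma adjusted p = 0.57, 0.18 to 1.0 over the alternatives). Its wild type values were nearly equal and the groups did not overlap. Gng7, the gamma subunit of that G protein, differed by -0.30 (SE 0.11, limma adjusted p = 0.70), and Rasd2, a Ras-like GTPase of striatum, by -0.22 (SE 0.095, limma adjusted p = 0.75). Among the 3 genes with a higher knockout mean were Adcy5 (log2 difference 0.034, SE 0.093) and Pde1b (0.029, SE 0.12). Both differences were smaller than their SE, and wild type 3 was the lowest array in both genes (9.08 and 9.82). Neither gene was followed with arrays left out, so its sign may rest on that array.

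Sp9, a zinc finger factor of striatopallidal neurons, differed by -0.19 (SE 0.095, limma adjusted p = 0.79) and Zfp503, also called Nolz1, a striatal zinc finger factor, by -0.16 (SE 0.086, limma adjusted p = 0.80); neither overlapped between groups. Zfp503 turned to 0.080 with a filter at the 75th percentile. Isl1, a LIM homeodomain factor of striatonigral neurons, read 9.08, 8.89, 8.04 and 9.15 on the knockout arrays against a wild type mean of 9.06 ± 0.21 (SD, n = 4), and its difference of -0.26 was -0.013 without knockout 3. Pde10a, the phosphodiesterase of medium spiny neurons, differed by -0.12 (-0.070 without wild type 1). Among those not tested for too few probe sets were the striatal markers Pdyn, with 3 retained, and Chrm4, with 2.

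**Figure D3:**
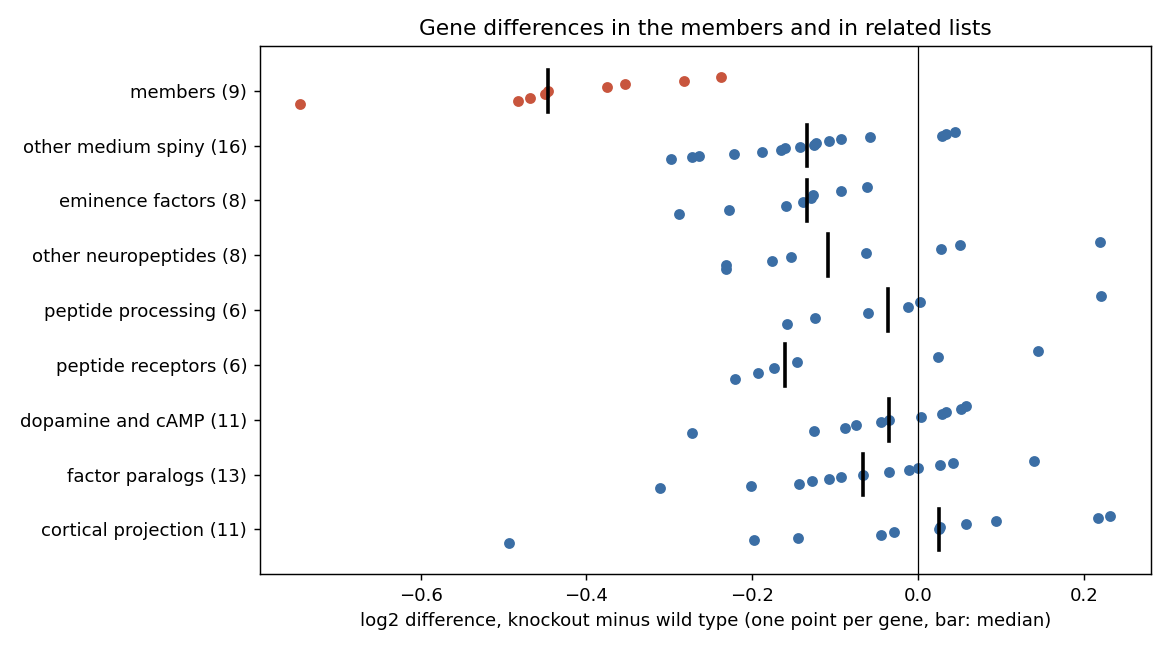
Log2 difference, knockout minus wild type (x axis), of each tested gene (points) in the 9 measured genes (red) and in related gene lists (blue, number of genes in brackets), with each list's median as a black bar. The median is -0.45 for the 9 genes, which were picked on this difference, and -0.13 for the other medium spiny genes and the ganglionic eminence factors. It is -0.16 for the peptide receptors and -0.11 for the other neuropeptides. The factor paralogs stand at -0.067, peptide processing at -0.036, and dopamine and cyclic AMP at -0.035. Cortical projection neuron genes stand at 0.026, with a sign that turned under some alternatives.

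The ganglionic eminence factors, which specify the precursors of striatal neurons and interneurons, had a lower knockout mean in 8 of 8 genes tested, with a median difference of -0.13 and none past the threshold. The median was -0.071 without knockout 3. Dlx5, a homeobox factor of these precursors, differed by -0.29 (SE 0.12, limma adjusted p = 0.75), Dlx1 by -0.16, Dlx2 by -0.14 and Gsx1 by -0.23. Without knockout 3 the difference was -0.18 for Dlx5 and -0.025 for Dlx1, and without wild type 1 it was -0.12 for Gsx1. Gsx1 turned to 0.22 with no filter on low probe sets.

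Among other genes of the same pathways, 8 neuropeptide precursors were tested, 5 lower and 3 higher (median difference -0.11), with none past the threshold or at an unadjusted p under 0.05. Nts, the neurotensin precursor, differed by -0.23, Cck by -0.23, Npy by -0.18 and Adcyap1, the precursor of the peptide PACAP, by 0.22. Without wild type 1 the median of the list was -0.029, Cck differed by -0.083 and Npy by -0.063. Without knockout 3 Nts differed by -0.14, and without wild type 3 Cck differed by -0.39 and Adcyap1 by 0.10. Of 6 peptide-processing genes 4 were lower and 2 higher (median difference -0.036, between -0.076 and 0.017 over the alternatives); Scg5, the chaperone of the convertase PC2, differed by 0.22 (limma adjusted p = 0.76). Of 6 tachykinin and opioid receptors and relatives 4 were lower and 2 higher (median difference -0.16, -0.069 without knockout 3). Tacr1, the substance P receptor, differed by -0.22 without overlap (SE 0.093, limma adjusted p = 0.75), Oprd1, the delta opioid receptor for enkephalins, by -0.19, Oprk1 by -0.15 and Oprl1 by 0.14 (0.088 without wild type 3).

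Of 11 dopamine and cyclic AMP signalling genes, of which Gnal, Pde10a, Adcy5 and Pde1b were also among the 16 medium spiny genes above, 6 were lower and 5 higher. Their median difference was -0.035, between -0.088 and 0.016 over the alternatives. Drd5, the other D1-type receptor, differed by -0.088 (-0.19 without wild type 1, -0.057 without knockout 1). The filter was taken again on the remaining arrays, so the shift to -0.19 also holds a change in the probe sets retained. Of 13 paralogs of the 4 transcription factors, 9 were lower and 4 higher (median difference -0.067, -0.018 without knockout 3 and -0.026 without wild type 1). Ikzf4, the Ikaros relative Eos, read 8.59, 8.66, 8.80 and 8.73 in wild type and 8.41, 8.28, 8.51 and 8.33 in knockout cortex, without overlap (log2 difference -0.31, SE 0.092, limma adjusted p = 0.42, 0.063 to 0.83 over the alternatives). Ebf4 differed by -0.20 (SE 0.091, limma adjusted p = 0.76), and by 0.0033 with a filter at the 75th percentile, and Foxp4 by -0.14.

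Lists of other cell types and neighbouring regions were read beside these values, and their part in them was not tested. Cortical projection neuron genes were lower in 5 and higher in 6 of 11 (median difference 0.026, between -0.067 and 0.048 over the alternatives), and their array means ran from -0.11 to 0.13 in wild type and from -0.098 to 0.051 in knockout cortex. Slc17a7, the vesicular glutamate transporter of cortical neurons, was the exception without overlap, at a difference of -0.49 (SE 0.13, limma adjusted p = 0.36). Interneuron genes were lower in 8 of 9 (median difference -0.063, -0.014 without wild type 1). The 3 pallidal and septal genes tested were all lower (median difference -0.21, -0.014 without knockout 3); Lhx8, a factor of ventral forebrain cholinergic neurons, read 7.94 on knockout 3 and 8.96, 9.05 and 8.96 on the other knockout arrays, against 8.85 to 9.20 in wild type.

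**Figure D4:**
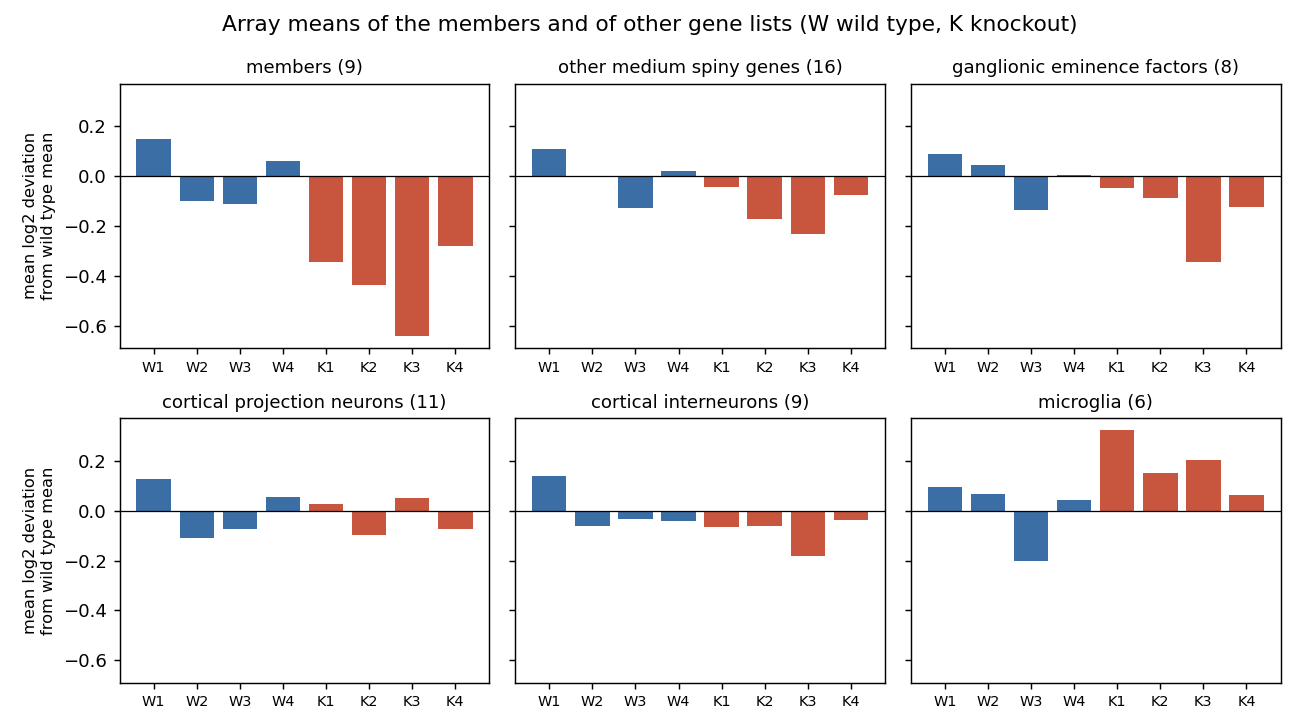
Mean log2 deviation from the wild type mean (y axis, same scale in all panels) on each array (W wild type in blue, K knockout in red) for the 9 measured genes and 5 other gene lists, with the number of genes in brackets. The 4 knockout bars of the 9 genes, -0.28 to -0.64, are all below the wild type bars. Those of the other medium spiny genes, -0.044 to -0.23, overlap them. Knockout 3 is the lowest array of the 9 genes, the medium spiny genes, the eminence factors and also the cortical interneuron genes (-0.18).

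Knockout 3 was the lowest array in 6 of the 9 genes and in Isl1 and Lhx8, and without it the differences stood at -0.61 for Tac1, -0.23 for Drd2 and -0.28 for Rxrg. The other medium spiny genes had array means of 0.11, -0.00068, -0.13 and 0.021 in wild type and -0.044, -0.17, -0.23 and -0.077 in knockout cortex, so that wild type 3 lay below knockouts 1 and 4. Thalamic genes were lower in 3 and higher in 4 of 7 (median difference 0.0099) and hippocampal genes lower in 2 and higher in 4 of 6 (0.046). Endothelial genes were higher in 4 of 5 (0.12), choroid plexus genes lower in 8 of 8 (-0.28, -0.027 without knockout 2), erythroid genes split 1 and 1 (0.089), and activity-regulated genes were higher in 3 of 4 (0.035). The medians of the thalamic (-0.067 to 0.076), hippocampal (-0.0067 to 0.12), endothelial (-0.015 to 0.20), erythroid (-0.034 to 0.20) and activity-regulated lists (-0.036 to 0.37) took both signs over the alternatives. No gene of these lists passed the adjusted threshold.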

How the data were processed

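RNA from 8 cortices was measured on exon arrays. The authors deposited log2 signals per probe set; the submitters' processing notes name Affymetrix Expression Console, RMA and mm9, and neither versions nor roles are given there. Under RMA the probe intensities of all arrays take 1 distribution before probe sets are summarised, so differences in total RNA are lost and low signals are compressed. The deposited probe set values still had array medians from 6.82 to 6.93. Of 625534 probe sets, 303629 carried exactly 1 symbol, updated through RefSeq (GRCm38.p6); Penk and Drd1 were annotated under older symbols. Probe set positions were not used. Probe sets with a mean of at least 6.84 were retained, and a gene's value was the median of its retained probe sets, at least 4.

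Groups were compared with limma 3.58.1 in R 4.3.3 (lmFit, eBayes, no covariate, Benjamini-Hochberg adjustment over all genes at 0.05); diffSplice gave usage. The scripts were tested on simulated data. The genes and lists were chosen with earlier results of these data known. Named genes were every gene of the set and up to 4 genes per list with the smallest p. Pde10a, Drd5, Neurod6, Isl1, Lhx8, Adcy5, Pde1b and the medium spiny genes named for r were added after their values were seen. Alternatives changed the filter, normalization, summary, weights and arrays. With arrays left out, the filter was taken again on those that remained, so the probe sets of a gene could change. Same-numbered replicates had correlations of their deviations of 0.25, -0.0039, 0.033 and 0.17. No correlations of differently numbered arrays were set beside them, so these values cannot decide whether the numbers pair the arrays. The main comparison treated the arrays as unpaired, and a block on the replicate number was among the alternatives.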

Additional observations from a re-analysis of the deposited data

Results flagged for a closer look

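For each of the 9 genes and each gene list, the highest and lowest array of either genotype were set against the others; of 62 such groups of 4 arrays, 3 had an array that stood apart by Dixon's test, where chance flags about 1 in 20 groups. The peptide-processing list had a mean deviation of -0.1388 on knockout 3, against 0.0083 to 0.025 on the other knockout arrays. The interneuron list stood at 0.1403 on wild type 1, against -0.063 to -0.035 on the other wild type arrays. The thalamic list stood at 0.4127 on knockout 4, against -0.13 to -0.041 on the other knockout arrays. None of the 9 measured genes was among the 3.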

How the results depend on the processing

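All 9 genes, or the 5 that passed a filter at the 75th percentile, had a lower knockout mean in every setting, with a mean difference between -0.48 and -0.35. The number called past the adjusted threshold was 0, but 1 with that filter (Ebf1), with quantile or cyclic loess normalization (Ppp1r1b), with the mean of probe sets (Penk), and with the replicate block (Tac1), and 4 with array weights (Tac1, Ikzf1, Drd1 and Ppp1r1b); it ranged from 0 to 1 with 1 array left out, the 1 being Ppp1r1b without wild type 3. At an unadjusted p under 0.05 the count was 9, but 5 of the 5 genes tested at the 75th percentile, 8 with no filter, 8 without wild type 3 and knockout 3, and 8 to 9 with 1 array left out. Lower genes at that p among all tested numbered 491, but 282 at the 75th percentile and 946 with array weights. With 1 array left out they numbered 337 to 669. The number of genes tested also changed with the filter. Over all genes the count called was 15, but 7 with no filter, 25 at the 75th percentile, 24 with quantile and 22 with cyclic loess normalization, 22 with the replicate block, 18 with trend and robust, 37 with the mean of probe sets, 5 with a minimum of 1 probe set, 71 with array weights, 9 without wild type 3 and knockout 3, and 7 to 15 with 1 array left out. Of the other medium spiny genes, 3 were lower at an unadjusted p under 0.05, but 5 with quantile or cyclic loess normalization, the mean, a minimum of 1 probe set or array weights, 4 with the replicate block, 2 at the 75th percentile, 6 without wild type 3 and knockout 3, and 2 to 7 with 1 array left out (7 without wild type 3). Called usage among the 114 probe sets of the 9 measured genes ranged from 0 to 1 with 1 array left out. Among the single genes followed by name over the settings, the sign turned in Zfp503 (0.080) and Ebf4 (0.0033) at the 75th percentile and Gsx1 (0.22) with no filter. Adcy5 and Pde1b were not among the genes followed. List medians that took both signs over the settings were those of the cortical projection, thalamic, hippocampal, microglial, endothelial, erythroid, activity-regulated, dopamine and peptide-processing lists. The causes were not tested. The number of arrays, 4 a group, limits the precision, and arrays give no count depth.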
